A study of Mus musculus with 6 samples.

Results

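Mouse genes whose only name is a Gm number are described here: gene models that the mouse nomenclature committee numbered without giving them a functional symbol. A gene was included if its symbol was Gm followed by digits and its level averaged at least 5 CPM (the gene's count scaled by the total count of its library) over 6 tumour RNA libraries. This rule kept 423 genes, called members below, of 8680 rows with a Gm number and 28368 rows in all. Membership was thus chosen by level, without regard to treatment, so the levels are a description and the difference between treated and control tumours was not used in the choice.

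The series sequenced polyadenylated RNA from whole mouse tumours in 2 groups of 3 libraries. Tumours of the treated group had undergone 12 h of a therapy named MS-DF-MS, while controls were untreated. The title describes implanted depots that release STING agonists, which switch on type I interferon, and then inducers of apoptosis; the stated question is how the STING to interferon-beta route is activated in the tumour. Strain, age, tumour line and the tumour's site are not given in the labels, no group carried an empty depot, and it is not stated if the 3 libraries of a group came from different mice. The p-values therefore describe only how these libraries vary, and that variation may be technical.

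Libraries held 64505780 to 66634551 counts in the treated group and 57017043 to 64172654 in the control group. Treated 3 stood apart on the first principal component, and treated 1 held 81.2 CPM over 4 keratinocyte markers, against at most 0.140 CPM in any other library. Melanocyte markers were abundant in both groups, summing to 22375 to 23958 CPM over 7 genes in treated and 21584 to 23900 CPM in control tumours. Endothelial markers summed to 95.3 to 111 CPM over 5 genes in treated and 50.6 to 54.8 CPM in control tumours, and 3 of the 5 (Pecam1, Cdh5 and Tie1) were higher in treated tumours. In the same libraries 27 of 28 interferon-stimulated genes were higher in treated tumours.

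Gm numbers cover several kinds of gene. Processed pseudogenes are copies of a messenger RNA that was reverse-transcribed and pasted back into the genome, usually without introns or promoter; abundant housekeeping messages have left many of them. Stretches of the mitochondrial genome have also been copied into nuclear chromosomes. Other Gm models are long noncoding RNAs, read-through transcripts that join exons of neighbouring genes, and protein genes that have kept their provisional name. A read that matches a copy and its source equally well can be counted for either, which makes the count of such a gene depend on how the reads were assigned. The sources used here do not give the aligner or the rule for such reads.

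By the gene types of the GENCODE M21 annotation (build GRCm38), 260 of the 423 members were pseudogenes, of which 241 were processed and 17 unprocessed. A further 83 were typed protein-coding, 58 were long noncoding RNAs and 20 were TEC, a holding class for models that await experimental evidence. One member was typed as a microRNA, and Gm50461 had no match in that annotation. RefSeq gave a pseudogene type to 255 members and had no match for 92. Pseudogenes held 88.4% of all member counts on the CPM scale, protein-coding members 7.18% and long noncoding RNAs 2.96%.

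The name "high counts" fits few of them: the median mean level was 12.5 CPM, with a range of 5.02 to 3924 CPM. In all, 172 members were under 10 CPM, 40 reached 100 CPM and 6 reached 1000 CPM. Just inside the threshold stood Gm50461 at 5.02, Gm2026 at 5.03 and Gm44502 at 5.08 CPM, and just outside it Gm50431 at 4.96, Gm44386 at 4.95 and Gm14303 at 4.92 CPM. Members took 3.32, 3.24 and 3.14% of all counts in treated libraries 1 to 3, against 3.14, 3.15 and 3.15% in control libraries 1 to 3. The treated mean was 848 CPM above the control mean, which an exact two-sided permutation test did not separate (p = 0.4; 3 against 3 libraries cannot go below 0.1).

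Each member's longest transcript was aligned to the transcripts of named protein-coding and mitochondrial genes in the table, leaving out all Gm-number genes. For 270 members, such a gene at another locus matched at least 80% of the transcript at 95% identity or more. The median identity was 99.5%, and these 270 members traced to 163 genes. Copies among other Gm genes, pseudogenes or noncoding genes were not counted here. Windows of 150 bases, the read length in the labels, were compared with the transcripts of all other genes in GENCODE M21. Of 421 members with such windows, 195 had at least 50% of them in another gene without a single mismatch, and 54 had all. No window was shared for 83 members, among them the microRNA of 57 bases, which is too short to hold one. The match was densest among abundant housekeeping messages: 28 members matched Gapdh, 12 matched Hnrnpa3, 7 matched Rpl21, 6 matched Rpl7a and 5 each matched Eef1a1, Hmgb1 and Rpl29.

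The most abundant members show what such matches look like in bases. The stretch below, from the coding part of Gapdh (the glycolytic enzyme glyceraldehyde-3-phosphate dehydrogenase), is shared by Gm12671 without a mismatch, and Gm5559 differs from it at the capital letter. Gm5559 was read at chr5:95862048-95862147 on the plus strand and Gm12671 at chr4:91852236-91852335 on the minus strand of GRCm38, 5′ to 3′ along each transcript.
Gm5559: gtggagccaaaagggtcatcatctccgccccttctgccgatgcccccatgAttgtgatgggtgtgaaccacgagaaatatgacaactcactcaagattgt
Gapdh: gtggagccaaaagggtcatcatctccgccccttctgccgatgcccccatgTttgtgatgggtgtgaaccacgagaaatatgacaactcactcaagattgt
Gm12671: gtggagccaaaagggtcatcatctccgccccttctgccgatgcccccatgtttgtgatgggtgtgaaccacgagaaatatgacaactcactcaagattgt

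Gapdh-like members were not called in treated against control tumours, singly or as a family. The 28 of them, on 13 chromosomes, summed to 9841, 10461 and 9995 CPM in treated libraries 1 to 3, against 10365, 10499.7 and 9600.3 CPM in control libraries 1 to 3. Gapdh itself had 458, 976 and 1046 CPM in treated libraries, against 694, 738 and 866 CPM in control libraries. The members thus held 92.7% of the family's counts. None of the 28 was called, their log2 fold changes ran from -0.19 to 0.04, and the family summed into 1 row gave 0.02 ± 0.06 (SE; edgeR adjusted p = 0.935), a fit added after seeing the data.

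Among single Gapdh-like members, Gm7336 was the most abundant, at 1353, 1434 and 1346 CPM in treated and 1411, 1424 and 1275 CPM in control libraries. Gm5559 had 1142, 1157 and 1093 CPM in treated and 1144, 1175 and 1043 CPM in control libraries. Gm12671 had 924, 1013 and 979.9 CPM in treated and 1000.2, 1009 and 939 CPM in control libraries. Groups overlapped for each of them, as they did for Gm10359 and Gm13394, the other Gapdh-like members among the 10 most abundant. Per length, Gm5559 averaged 994 FPKM (a level scaled by transcript length and library depth) and Gapdh 171 FPKM over the 6 libraries. The count of Gm12671 was 2.02 times that of Gapdh in treated 1, and 1.04 and 0.937 times in treated 2 and 3, against 1.44, 1.37 and 1.08 times in control libraries 1 to 3. The pair is identical over the whole of Gm12671. Their ratio moved between treated libraries, where Gapdh ran from 458 to 1046 CPM and Gm12671 from 924 to 1013 CPM. The members' sum, which leaves out Gapdh, stayed within 9600.3 to 10499.7 CPM over the 6 libraries. How reads were split between Gapdh and its copies was not tested.

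**Figure D1:**
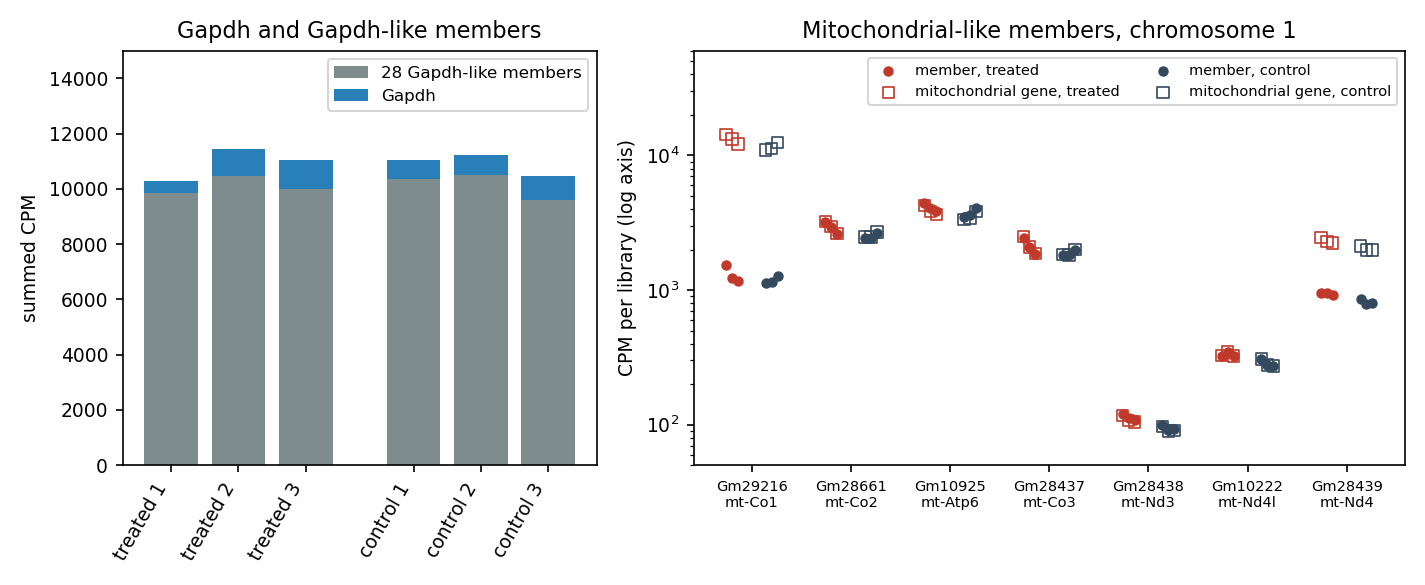
Left, summed CPM of the 28 Gapdh-like members (grey) and of Gapdh (blue), stacked, in each treated and control library; right, CPM (log axis) of the 7 mitochondrial-like members of chromosome 1 (filled) and of the mitochondrial gene each matches (open squares), 3 treated libraries in red and 3 control libraries in dark blue. The grey bars run from 9600.3 to 10499.7 CPM, and 5 of the 7 members lie on top of their mitochondrial gene while Gm29216 and Gm28439 lie under it.

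A second group of abundant members is a copy of part of the mitochondrial genome. A run of 7 members on chromosome 1, spanning 4663 bases from 24611535 to 24616197, match mt-Co1, mt-Co2, mt-Atp6, mt-Co3, mt-Nd3, mt-Nd4l and mt-Nd4, which encode subunits of the respiratory chain and of ATP synthase. Their identity was 99.7% or more, and they held 35.0% of all member counts on the CPM scale. Gm10925, the most abundant member of all, is identical to mt-Atp6 over its whole length; its first 100 bases, at chr1:24614552-24614651 on the minus strand of GRCm38, are shown to mark the shared start, with no capitals because no base differs.
Gm10925: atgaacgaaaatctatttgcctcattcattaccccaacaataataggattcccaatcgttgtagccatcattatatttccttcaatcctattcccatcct

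The 7 mitochondrial-like members summed to 13009, 11678 and 10803 CPM in treated libraries 1 to 3, against 10184, 10175 and 11161 CPM in control libraries 1 to 3. Treated 3 lay below control 3, so the groups overlapped, and an exact permutation test over the libraries gave p = 0.2. Gm10925 had 4466, 4044 and 3857 CPM in treated libraries, against 3513, 3609 and 4058 CPM in control libraries. Gm28661, the copy of mt-Co2, had 3196, 2923 and 2592 CPM in treated libraries, against 2453, 2448 and 2662 CPM in control libraries. Log2 fold changes of the 7 members ran from 0.15 to 0.28, with edgeR adjusted p from 0.0974 to 0.526, and none was called.

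Member and mitochondrial gene moved by nearly the same amount. The median distance between their log2 fold changes was 0.007, and the ratio of their counts had a median of 0.987. For Gm28661 that ratio stayed between 0.984 and 0.989 in treated and between 0.987 and 0.989 in control libraries. For Gm28439, which covers part of mt-Nd4, the ratio was 0.386 to 0.415 in treated and 0.401 to 0.404 in control libraries. For Gm29216, which matches mt-Co1, it was far lower, 0.107, 0.093 and 0.095 in treated libraries 1 to 3 and 0.102 to 0.104 in control libraries. For Gm28438, the copy of mt-Nd3, counts were 7811, 7373 and 7217 in treated and 6403, 5901 and 5276 in control libraries, which did not overlap, at a log2 fold change of 0.28 ± 0.07 and an adjusted p of 0.0974. The mt-like members of chromosome 2, Gm13340 and Gm13341, match mt-Co1 and mt-Co2 at 97.6 and 95.9% identity. They averaged 7.09 and 5.93 CPM, with log2 fold changes of 0.15 (adjusted p = 0.744) and 0.24 (adjusted p = 0.608).

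In treated against control tumours, few members were called. By edgeR's quasi-likelihood test over all 18049 genes that passed the filter on low counts, 1.61% of genes were called at a Benjamini-Hochberg adjusted p under 0.05, 1.36% as higher and 0.249% as lower in treated tumours. Of the 422 members tested, 4 (0.948%) were called, all higher in treated tumours: Gm20559, Gm6548, Gm4070 and Gm15459. At an unadjusted p under 0.05 there were 66 members (15.6%), against 2891 of the 18049 genes. The median log2 fold change was -0.03 over members and -0.003 over all genes, and 391 members moved by less than 0.5. In bulk tissue, more RNA per cell and more cells of a type cannot be told apart.

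The 3 treated libraries lay wholly above or below the 3 control libraries for 102 members (24.2%), against 23.5% of all genes tested. All treated libraries lay above all controls for 36 members, where the share over all genes was 10.8%, and below for 66, where it was 12.7%. The long noncoding members had 1 call in 58, the protein-coding members 1 in 82 tested and the pseudogenes 2 in 260. Among the 5 classes with more than 2 members, medians ran from -0.07 for protein-coding members to 0.19 for unprocessed pseudogenes, which include the mitochondrial-like ones. DESeq2, the tool that called the most genes here, called 20 of the 422 members tested, 12 higher and 8 lower. It called 1080 of all 18049 genes tested, which is 5.98%.

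**Figure D2:**
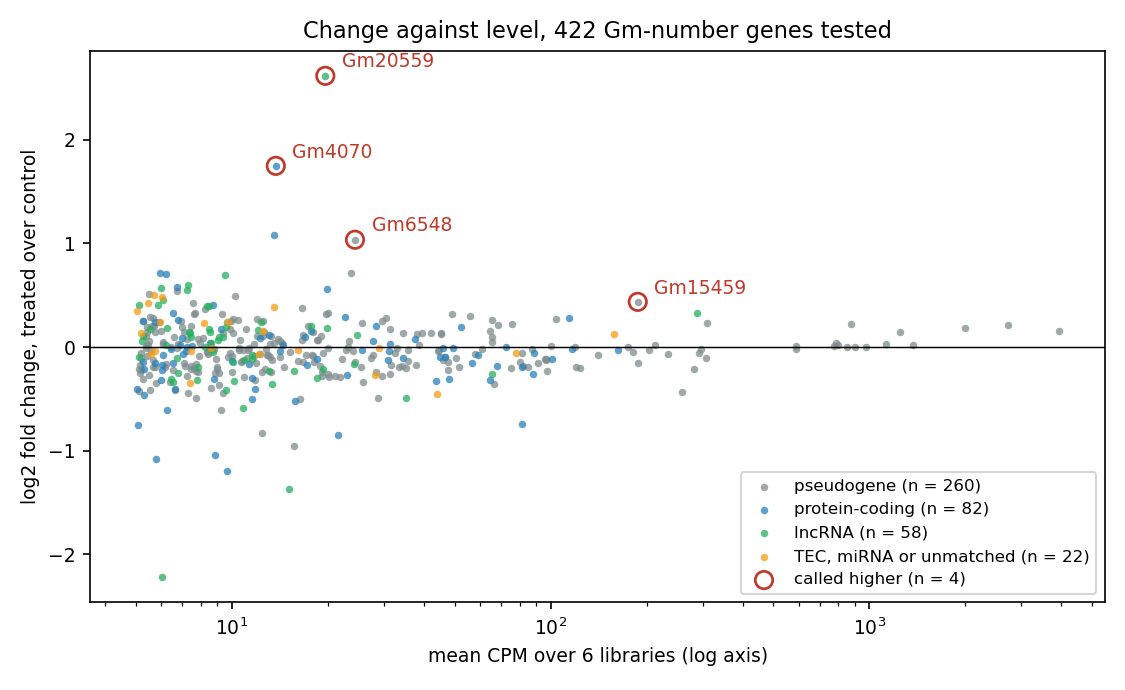
Log2 fold change of treated over control tumours against mean CPM (log axis) for the 422 members tested, coloured by annotated gene type, with the 4 members called higher ringed. Most points lie between -0.5 and 0.5 at every level, Gm20559 stands highest at 2.62, and the 6 members past 1000 CPM lie between 0.02 and 0.22.

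Gm20559, a long noncoding RNA gene on chromosome 6 (3333194 to 3346098, minus strand, GRCm38), rose 6.13-fold. Its counts were 2849, 1898 and 1890 in treated libraries, against 325, 335 and 361 in control libraries, and the groups were far apart. Means were 33.7 ± 9.02 CPM in the treated group, against 5.54 ± 0.690 CPM in the control group (SD, n = 3 each), a log2 fold change of 2.62 ± 0.19 (SE; edgeR adjusted p = 0.000559). Gm20559 was called in all 15 alternative fits, which include leaving out each library in turn, with an adjusted p of at most 0.00928. None of its 150-base windows occurred in another gene compared.

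The neighbours of Gm20559 rose with it. Gm43197, a Gm gene under the level threshold that lies inside its span on the same strand, had 357, 396 and 380 counts in treated and 72, 82 and 59 in control libraries (log2 fold change 2.34 ± 0.20, adjusted p = 0.000931). Samd9l, an interferon-induced antiviral gene 26159 bases upstream on the same strand, had 9836, 11787 and 8740 counts in treated and 1854, 2047 and 2059 in control libraries. Its log2 fold change was 2.27 ± 0.14 (edgeR adjusted p = 0.000305). The 3 genes thus moved together, by 2.27 to 2.62 on the log2 scale, along 1 stretch of chromosome 6.

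Gm6548, a pseudogene with the sequence of Eef1a1, rose 2.05-fold, while Eef1a1 was not called. Its counts were 2474, 1982 and 1970 in treated libraries, against 825, 983 and 1138 in control libraries, and every treated library was above every control. The log2 fold change was 1.04 ± 0.17 (edgeR adjusted p = 0.0307), while Eef1a1, the elongation factor that carries transfer RNA to the ribosome, had 0.03 ± 0.05 (adjusted p = 0.831). Gm6548 lies on chromosome 17 (78850792 to 78851956, minus strand), 608 bases beyond the 3′ end of Eif2ak2 on the same strand. Eif2ak2, which encodes the interferon-induced kinase PKR, had 8221, 8576 and 7224 counts in treated and 2937, 2836 and 3140 in control libraries (log2 fold change 1.35 ± 0.11, adjusted p = 0.000887). Without treated 1 or 2, or control 1 or 2, the adjusted p of Gm6548 was 0.0697, 0.112, 0.0800 and 0.177, past the threshold, while its log2 fold change stayed between 0.90 and 1.23. Gm6548 was also not called with no filter or with a replicate block.

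At 96.7% identity Gm6548 can be told from Eef1a1: none of its 1016 windows of 150 bases occurs in another gene compared. The stretch below, at chr17:78850906-78851005 on the minus strand of GRCm38, holds the most mismatches of any 100 bases in the coding part of the match, 9, marked by capitals in both.
Gm6548: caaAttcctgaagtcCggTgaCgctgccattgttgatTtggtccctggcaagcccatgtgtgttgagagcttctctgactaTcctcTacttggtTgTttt
Eef1a1: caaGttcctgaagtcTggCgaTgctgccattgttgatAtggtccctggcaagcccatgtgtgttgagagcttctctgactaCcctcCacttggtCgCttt

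Gm4070 rose 3.36-fold together with Gvin1, a very large interferon-inducible GTPase gene that it matches almost base for base. Gm4070 lies on chromosome 7 (105895139 to 105953958, minus strand), is typed protein-coding, and matches Gvin1 at 99.97% over nearly its whole transcript. It had 1457, 1814 and 887 counts in treated libraries, against 312, 358 and 492 in control libraries, with every treated library above every control. Gvin1 had 1466, 1767 and 833 counts in treated and 261, 343 and 476 in control libraries. The log2 fold change was 1.75 ± 0.31 for Gm4070 (edgeR adjusted p = 0.0373) and 1.82 ± 0.34 for Gvin1 (adjusted p = 0.0490).

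With 96.0% of its windows found in another gene, the split of reads between Gm4070 and Gvin1 is uncertain; summed into 1 row, the pair had a log2 fold change of 1.78 ± 0.32 (adjusted p = 0.0371). Gm4070 lost its call without any 1 of 5 libraries. The adjusted p was 0.0812 without treated 1, 0.141 without treated 2, and 0.129, 0.207 and 0.0713 without control 1, 2 and 3, and it was 0.00905 without treated 3. With all libraries, the call was also lost with limma-voom (adjusted p = 0.0674), with no filter (0.0912) and with a replicate block (0.143).

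Gm15459 is a processed pseudogene of Hspa8, the constitutive HSC70 chaperone, on chromosome 5 (5781615 to 5783555, minus strand). Its counts were 14772, 12963 and 14651 in treated libraries, against 11300, 9813 and 8661 in control libraries, and the groups did not overlap. The rise was small, 0.44 ± 0.08 on the log2 scale with an edgeR adjusted p of 0.0405, and Hspa8 had 0.39 ± 0.07 (adjusted p = 0.0313). The other Hspa8-like member, Gm8355, named after its values were seen, had 0.37 and was not called (adjusted p = 0.187). The count of Gm15459 was 0.078 to 0.081 of that of Hspa8 in treated and 0.074 to 0.079 in control libraries.

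Gm15459 differs from Hspa8 by 5 mismatches in 1941 bases, and 67.5% of its windows occur in another gene. One of the mismatches is shown in capitals, in the stretch at chr5:5783393-5783492 on the minus strand of GRCm38.
Gm15459: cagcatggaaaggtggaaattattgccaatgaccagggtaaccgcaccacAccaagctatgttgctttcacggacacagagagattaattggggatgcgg
Hspa8: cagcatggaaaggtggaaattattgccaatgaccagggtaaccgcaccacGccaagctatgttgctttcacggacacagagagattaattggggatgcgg
The call of Gm15459 was lost when treated 1, 2 or 3 was left out (adjusted p 0.0787, 0.0794 and 0.0816) and without control 2 or 3 (0.239 and 0.156), and kept without control 1 (0.0480). It was also lost when libraries were scaled by total counts only (0.0602), with no filter (0.0759) and with a replicate block (0.0786).

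**Figure D3:**
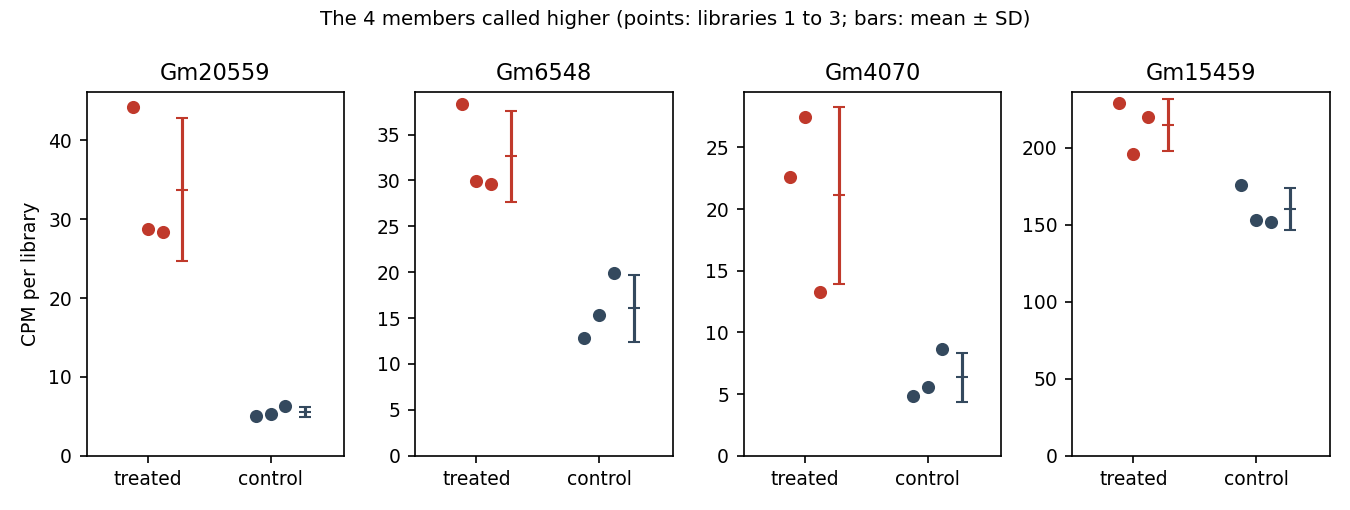
CPM of the 4 members called higher in each of 3 treated (left) and 3 control (right) libraries, with the mean and SD of each group. In every panel the 3 treated points lie above the 3 control points, by the widest margin for Gm20559.

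Endothelial markers and interferon-stimulated genes moved with treatment in the same libraries, as given above, and neutrophil and red blood cell markers varied within the treated group. Neutrophil markers, 0 of 5 of them called, summed to 49.8, 14.3 and 4.20 CPM in treated libraries, against 2.01, 1.64 and 3.77 CPM in control libraries. Red blood cell markers, 0 of 5 called, summed to 1491, 474 and 261 CPM in treated libraries, against 98.9, 169 and 249.6 CPM in control libraries. None of the markers in these lists was at 0 in all 6 libraries. Their part in the 4 calls was not tested.

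Of the members closest to a call, Gm42715 stood first, with lower values in treated tumours at a locus where Srcap rose. Gm42715 is a model on chromosome 7 (127519584 to 127567054, plus strand) that shares 76.4% of its exon bases with Srcap, which encodes a chromatin-remodelling ATPase. It had 3957, 3029 and 4977 counts in treated libraries, against 6673, 6651 and 5592 in control libraries (log2 fold change -0.74 ± 0.15, edgeR adjusted p = 0.0608). Srcap had 3719, 4648 and 3147 counts in treated libraries, against 1393, 1010 and 1062 in control libraries, and was called higher (1.66 ± 0.17, adjusted p = 0.00295).

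The counts of Gm42715 and Srcap together were 7676, 7677 and 8124 in treated libraries, against 8066, 7661 and 6654 in control libraries. Summed with Tmem265, the other row that shares exons there, the locus had a log2 fold change of -0.01 ± 0.06 (adjusted p = 0.973). The locus as a sum was thus not called. Gm42715 passed the threshold with the stricter filter (adjusted p = 0.0491), with DESeq2, with limma-voom and sample quality weights (0.0127), and without treated 3 (0.00863).

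The other 4 members with the smallest p that were not called differed by less. Gm829, typed lincRNA by GENCODE and protein-coding by RefSeq, had 578, 581 and 561 counts in treated and 411, 372 and 301 in control libraries (0.60 ± 0.14, adjusted p = 0.0993). Gm3362, an Rpl23a-like pseudogene inside Rrm2b, had a log2 fold change of 0.26 ± 0.06 (adjusted p = 0.0938). Gm6793, an Hnrnpa3-like gene, had -0.31 ± 0.07 (adjusted p = 0.0952); it overlaps Terf2ip on the other strand, whose reads cannot be told apart if strand was not used in counting. The fourth was the mitochondrial-like Gm28438. None of these 4 had overlapping groups, and each was called by DESeq2.

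Shared exons with a named neighbour were frequent among the members that varied most within a group. Of the 423 members, 34 shared at least 20% of their exon bases with another row on the same strand, 27 of them typed protein-coding. The range between libraries of 1 group, on the scale of log2(CPM + 0.5), had a median of 1.36 over these 34 members and of 0.35 over the other 389. For the summed counts of all rows at each locus it was 0.22, and the sum had the smaller range in 31 of 34. Of the 20 members with the largest such range, 11 were among the 34. The sums also hold more counts than the member alone, and the part of depth in the smaller range was not tested.

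Gm20716 shows the pattern at its widest. It shares 83.1% of its exon bases with Adnp, a homeobox protein gene on chromosome 2, and had 4575, 0 and 2315 counts in treated libraries, against 0 in each of the 3 control libraries. Adnp had 7441, 12108 and 11317 counts in treated libraries, against 11891, 11558 and 10785 in control libraries. Their sum was 12016, 12108 and 13632 in treated and 11891, 11558 and 10785 in control libraries. Scaled for depth, Adnp had 115, 183 and 169.8 CPM in treated libraries, against 185, 180.3 and 189 CPM in control libraries, lowest in the 2 libraries with Gm20716 counts. The locus as a whole had a log2 fold change of 0.06 ± 0.06 (adjusted p = 0.697). Gm20716 was the 1 member that did not pass the filter on low counts, and no fold is given. Without treated 2, the treated library with 0 counts, it passed the filter and was called higher. It was also tested, and not called, with no filter and without control 1, control 2 or control 3.

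Gm45717, which overlaps the interferon-induced Ifitm2 (54.1% of its exon bases) and Ifitm5, had 6, 2985 and 7 counts in treated libraries, against 2847, 44 and 2225 in control libraries. Ifitm2 had 9734, 5902 and 8947 counts in treated libraries, against 5751, 7884 and 4737 in control libraries. The 3 libraries highest in Gm45717 (treated 2, control 1 and control 3) were the 3 with the fewest Ifitm2 counts, in both groups. Ifitm2 alone had a log2 fold change of 0.35 and the locus 0.16 ± 0.07, neither called (adjusted p 0.448 and 0.305).

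Gm29253 shares exons with Abcb6 and Atg9a on chromosome 1, and had 114, 1522 and 1 counts in treated libraries, against 1968, 2108 and 133 in control libraries. Gm28042 overlaps Jmjd7 and Pla2g4b and had 628, 0 and 466 counts in treated libraries, against 402, 577 and 242 in control libraries. Gm44502 overlaps Chkb and Cpt1b and had 0, 444 and 299 counts in treated libraries, against 836, 191 and 187 in control libraries. In each of these 3 the groups overlapped and values of 1 group differed several-fold. Gm50461 had 338, 377 and 391 counts in treated libraries, against 0, 464 and 347 in control libraries, with no annotation to say what it overlaps on its strand. Zero counts in some library were found for 4 members, against 12 of the 10549 other rows of at least 5 CPM, which is 0.946 and 0.114%.

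**Figure D4:**
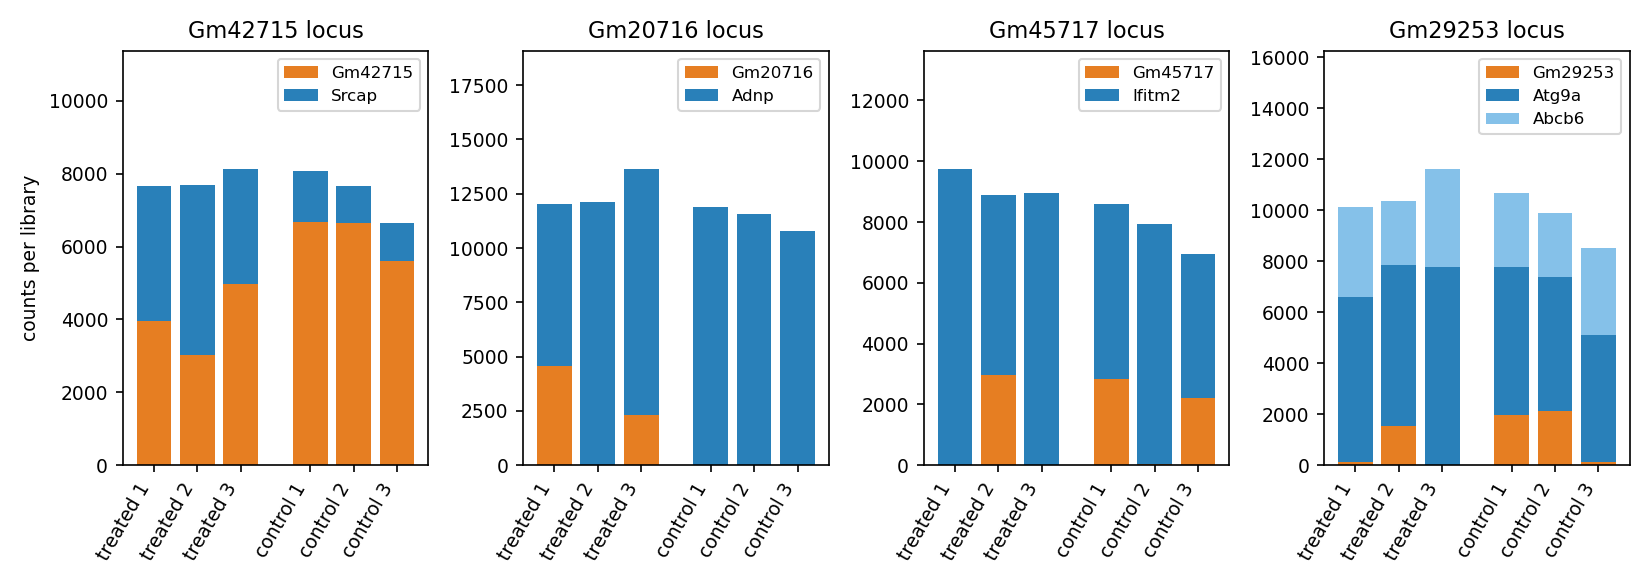
Counts of 4 members (orange) and of the named genes that share their exons (blue), stacked, in each treated (left) and control (right) library. The split between the colours changes from library to library, while the full bars run from 6654 to 8124 counts at the Gm42715 locus and from 10785 to 13632 at the Gm20716 locus.

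Summing the rows of a locus, a step added after seeing the data, gave 2 called loci among the 34, both named here after their values were seen, where 1.7% of all rows of that fit were called. At Gm28043, which overlaps the interferon-stimulated cap methyltransferase gene Cmtr1 and Rnf8, the sum rose by 0.51 ± 0.08 on the log2 scale (adjusted p = 0.0199). Cmtr1 alone had 0.66 ± 0.08 (adjusted p = 0.00659) and Gm28043 0.03 (adjusted p = 0.984). At Gm45837, which overlaps the phosphodiesterase gene Pde2a, the sum rose by 1.31 ± 0.15 (adjusted p = 0.00463), though neither row passed alone.

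At Gm45837 the split between the rows differed from library to library. Gm45837 had 740, 155 and 557 counts in treated libraries, against 168, 375 and 289 in control libraries. Pde2a had 33, 656 and 398 counts in treated libraries, against 136, 4 and 2 in control libraries. Together they had 773, 811 and 955 counts in treated libraries, against 304, 379 and 291 in control libraries, with no overlap. Endothelial markers moved the same way in these libraries, and their part was not tested.

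Across the 270 members with a copy elsewhere, the log2 fold change of a member and of the gene it matches went together only loosely. Pearson's r was 0.50 and Spearman's rho 0.42 over 270 pairs that share 163 genes, libraries and, for many, reads. The median absolute difference within a pair was 0.11, and 218 pairs were within 0.25. For the 153 pairs with at least 50% of windows shared r was 0.58, and for the 117 with less it was 0.38.

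Of the 163 matched genes, 4 were called, Hspa8, Gvin1, Srsf5 and Tomm20, beside 1.61% of all genes, and 5 members match them. Gm12966, the Srsf5-like member, had 455, 766 and 864 counts in treated libraries, against 1105, 1180 and 1513 in control libraries (-0.96 ± 0.26, adjusted p = 0.134). Srsf5, a splicing factor gene, fell by 0.67 on the log2 scale (adjusted p = 0.0276). Gm14494, the Tomm20-like member, had -0.13 (adjusted p = 0.631) where Tomm20, of the mitochondrial import receptor, had -0.30 (adjusted p = 0.0421). With members added to the gene they match, 6 of 163 families were called, Hmgn2 and Acaca beside these 4, where 1.7% of all rows of that fit were called.

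**Figure D5:**
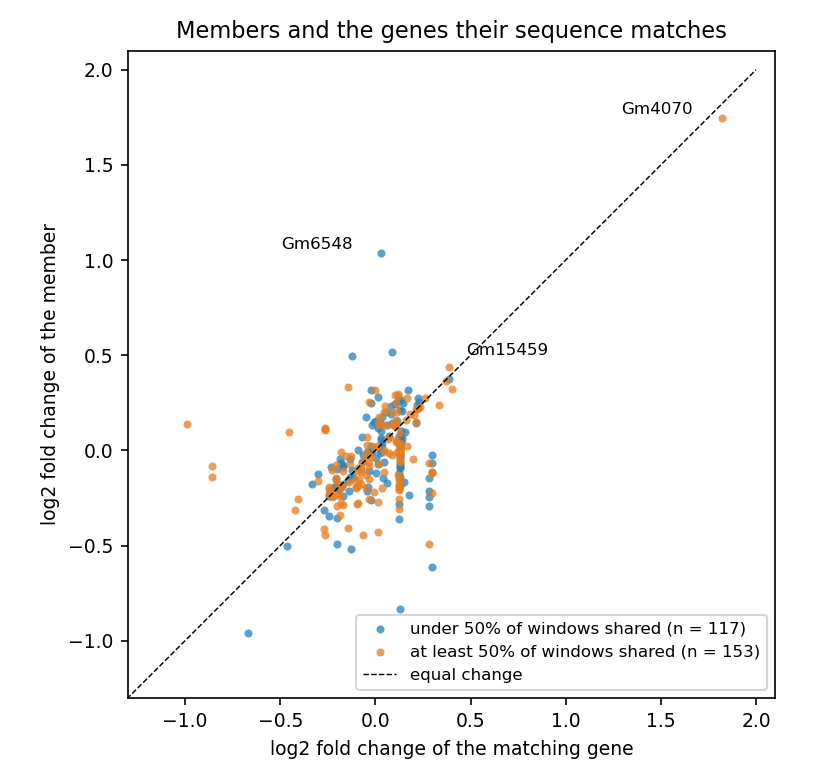
Log2 fold change (treated over control) of each member with a copy elsewhere against that of the gene it matches, 270 pairs, coloured by the share of 150-base windows found in another gene; the dashed line marks equal change. Gm4070 lies near the line at the upper right, and Gm6548 lies above it at 1.04 against 0.03.

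Ribosomal protein genes were matched by more members than Gapdh when taken as a group. The 62 members that match one summed to 2245, 2151 and 2266 CPM in treated libraries, against 2406, 2220 and 2056 CPM in control libraries, with overlap. None of 87 ribosomal protein genes tested was called. Of 6 genes on a list drawn up for rRNA-like loci, only Lars2 had a row in the table, and it was not called either. Whether its reads are rRNA-like was not tested.

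The nearest tested gene was called for 8 of 423 members, 7 higher and 1 lower, beside 1.61% of all genes. Of these, Gm20559 and Gm6548 were called themselves, and Gm42715 and Gm28043 shared exons with the neighbour. The other 4, none of them called, were named after their values were seen. Gm10039 had -0.13 beside Hap1 at 0.87, and Gm10273 had 0.12 beside P4ha1 at 0.50 on the log2 scale. Gm11110 had 0.001 beside Tnfsf9 at 0.62. Gm11451 had -0.83 (adjusted p = 0.156) beside Srsf6 at -0.46. Over 422 pairs r was 0.13 and rho 0.03.

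Few members were in the list of immune GTPases. Of 21 immunity-related GTPases and guanylate-binding proteins, cell-autonomous defence proteins induced by interferons, 3 were members. Called higher were 2 of the 21, Gvin1 and Gm4070, beside 1.36% of all genes. As given above, these 2 match almost base for base and the split of reads between them is uncertain, so the 2 calls are not separate. The list does not cover every related member. Gm43302, named after its values were seen, shares 41.6% of its exon bases with Gbp10 and 40.0% with Gbp6. It was not called (log2 fold change 0.29, edgeR adjusted p = 0.822). Gm12250 encodes Irgb10, an immunity-related GTPase that attacks the membranes of intracellular bacteria; GENCODE types its row as a processed pseudogene and RefSeq as protein-coding. It had 1984, 2905 and 862 counts in treated libraries, against 435, 1033 and 1780 in control libraries. The groups overlapped, since treated 3 was low and control 3 high (log2 fold change 0.71 ± 0.57, adjusted p = 0.607). Without treated 3 the log2 fold change was 1.07 (edgeR adjusted p = 0.388), and without control 3 it was 1.38 (0.447). Without treated 2 it was 0.27 (0.897), and without control 1 it was 0.33 (0.843).

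Gm4951, another immunity-related GTPase gene, also had overlapping groups, with treated 3 the lowest treated and control 3 the highest control library. It had 1437, 1647 and 529 counts in treated libraries, against 201, 593 and 798 in control libraries (1.08 ± 0.56, adjusted p = 0.402). Over all 21 genes the summed CPM was 2526, 2771 and 1171 in treated libraries, against 655, 1221 and 1970 in control libraries. T cell markers, 0 of 6 called, summed to 5.15, 3.15 and 1.46 CPM in treated libraries, against 6.22, 5.74 and 6.70 CPM in control libraries. Monocyte or macrophage markers, 0 of 5 called, summed to 149, 93.2 and 45.1 CPM in treated libraries, against 141, 135 and 98.8 CPM in control libraries. Treated 3 was the lowest treated library in all 3 of these sums, and the lowest of all 6 in the T cell and macrophage sums. The part of those cells was not tested.

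Promoters of 63 members were found in RefSeq's table (GRCm38.p6), each 250 bases before to 50 bases after the gene's start. The motif GAAANNGAAA, the core of the interferon-stimulated response element, was searched on both strands; matches can overlap other motifs. It occurred in 5 of 63 members' promoters (7.94%), against 3.99% of the 27025 genes in the table and 25.4% of the 185 called-higher genes with a promoter. The 5 were Gm12250, Gm12185, Gm20498, Gm20716 and Gm7072, and none was called. Gm12250 held 2 matches, shown in capitals in its promoter at chr11:58183593-58183892 on the plus strand, upstream of the start in the table; Gm20559, the member with the strongest rise, held none at chr6:3346092-3346391 on the minus strand, which says only that these letters are not in that window.
Gm12250: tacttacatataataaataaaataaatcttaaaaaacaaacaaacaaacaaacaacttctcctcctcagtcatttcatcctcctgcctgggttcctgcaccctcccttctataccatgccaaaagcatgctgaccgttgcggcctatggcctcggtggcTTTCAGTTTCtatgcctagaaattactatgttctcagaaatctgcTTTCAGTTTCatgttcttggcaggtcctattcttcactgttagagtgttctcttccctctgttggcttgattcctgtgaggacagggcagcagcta
Gm20559: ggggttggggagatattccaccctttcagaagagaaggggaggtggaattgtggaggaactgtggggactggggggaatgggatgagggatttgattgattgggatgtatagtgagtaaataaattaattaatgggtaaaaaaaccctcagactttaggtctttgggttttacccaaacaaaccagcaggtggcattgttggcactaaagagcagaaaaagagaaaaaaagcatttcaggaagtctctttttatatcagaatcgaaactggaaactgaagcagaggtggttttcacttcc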

How the data were processed

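RNA was measured in 6 libraries, 3 treated and 3 control, grouped as labelled. Libraries were made from polyadenylated RNA with dUTP marking and read in pairs of 150 bases, per the labels' protocols. Tools named, per the submitters' processing notes, are fastp, StringTie and edgeR, without versions. Aligner, build, annotation and use of strand: not given in the sources used here. The authors deposited raw counts per gene, whole numbers per the file headers, and FPKM values per gene, which served here only for levels per length.

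Counts were tested in edgeR 4.0.16 (R 4.3.3) by the quasi-likelihood test (glmQLFit, glmQLFTest) with group as the term, after TMM scaling and filterByExpr (minimum count 10, total 15), which left 18049 of 28368 genes. P-values are two-sided and adjusted by Benjamini-Hochberg over all of them, with 0.05 as threshold. The SE given for a log2 fold change is not an output of edgeR. It was calculated as the size of the log2 fold change divided by the square root of the test's F statistic. edgeR estimated a common biological coefficient of variation of 0.252. Alternatives were DESeq2 1.42.0, limma 3.58.1 (voom), other scalings and filters, a replicate block, each library left out, and, chosen after seeing the data, families or loci summed. Precision is set by the spread between libraries and, near 5 CPM, also by counts.

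All but 1 of the members' identifiers occur in GENCODE M21 (GRCm38), 404 with the same start and end; coordinates are those of the table. Transcripts were compared with BLAST+ 2.17.0, and sequences are credited to GENCODE M21 (transcripts) and RefSeq (promoters). Members named are the 10 most abundant, those called, the 5 with the smallest p not called, 3 on each side of the threshold, members in a list, and the 5 with the largest range within a group, with their neighbours; others are marked. The members and lists were chosen with earlier results of these data known.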

Additional observations from a re-analysis of the deposited data

How the results depend on the processing

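Members called numbered 4 of 291 genes called. DESeq2 called 20 of 1080, limma-voom with sample quality weights 15 of 792, and no filter 1 of 174. Members tested in these 3 fits numbered 422, 422 and 423, and the share of all genes called was 5.98, 4.39 and 0.613%. The cause of the differences between fits was not tested. With 1 library left out, 1 to 5 of the 422 or 423 members tested and 97 to 347 genes (0.518 to 1.85% of those tested) were called. Both were fewest without control 2 and most without treated 3. Genes called fell to 136, 120 and 126 without control 1, control 3 and treated 2. The members' summed difference was 393 to 1321 CPM. The other scalings, filters and limma-voom called 3 to 5 of 422 members tested and 263 to 353 genes (1.46 to 2.55% of those tested). Membership at 2 or 10 CPM, or at 5 CPM in every library, gave 6 called of 790 members, 4 of 251 and 3 of 340. The share of all genes called in that fit was 1.61%. Gm20559 was called in 15 of 15 fits, Gm6548 in 9, Gm4070 and Gm15459 in 7 each, and no named member reversed its call. The replicate numbers come from library names, which do not say if libraries were paired. After centring within each group of 3, same-numbered libraries correlated at 0.09, -0.16 and -0.11. Centring ties these values to each other, so they cannot decide if pairs exist. With a replicate block, 137 genes (0.759% of those tested) were called, 1 of them among the 422 members tested. Depth limits the members near 5 CPM. For members with a copy, shared sequence limits which gene a count belongs to.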

Other observations

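Of 41 families with at least 2 members, 6 had log2 fold changes of one sign in every member and of the other sign in the gene they match, and none of these members, genes or sums was called. The 4 largest of the 6 follow, chosen after their values were seen. The 12 Hnrnpa3-like members had log2 fold changes of -0.36 to -0.12, and Hnrnpa3, an RNA-binding protein gene, had 0.13 (edgeR adjusted p = 0.942). The 7 Rpl21-like members had -0.61 to -0.03, and Rpl21 had 0.30 (adjusted p = 0.183). The 6 Rpl7a-like members had -0.49 to -0.06, and Rpl7a had 0.28 (adjusted p = 0.698). The 3 Timm23-like members had 0.11 to 0.12, and Timm23, of the inner membrane import channel, had -0.26 (adjusted p = 0.349). Added to the gene, the 4 families had -0.13, -0.06, 0.12 and -0.13 on the log2 scale, with adjusted p from 0.445 to 0.687.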
